A study of Mus musculus with 4 samples.

Results

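The 9 genes described here encode integrin subunits of leukocytes: the alpha subunit genes Itgal, Itgam, Itgax, Itgad, Itga4 and Itgae, and the beta subunit genes Itgb2, Itgb1 and Itgb7. They were chosen by name, with earlier results of these data known, from the 19938 genes that have a probe set annotated with 1 symbol. Each is represented by its brightest probe set over the 4 arrays. All 9 had such a probe set and all 9 reached the study's expression limit, a log2 value of 6.5, on every array.

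Integrins are paired receptors in which 1 alpha and 1 beta subunit join before they reach the cell surface. In leukocytes the beta 2 subunit, CD18, partners with alpha L (CD11a, giving LFA-1), alpha M (CD11b, giving Mac-1), alpha X (CD11c) and alpha D (CD11d). Alpha 4 joins beta 1 to form VLA-4, a receptor of VCAM-1, or beta 7 to form a receptor of the gut addressin MAdCAM-1, and alpha E (CD103) joins beta 7 to bind E-cadherin. On dendritic cells (DC) these subunits also serve as labels: CD11c marks DC in general, CD11b one class of classical DC and CD103 much of the other class.

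RNA of Esam DC, a subset of splenic classical DC named for an adhesion molecule on its surface, was profiled on 4 arrays, 1 for each of 4 mice. The mice were 6 weeks old, untreated, and formed 2 pairs of littermates with 1 mouse of each genotype per pair. The genotypes are labelled DCRunx3 +/+ (wt, n = 2) and DCRunx3 -/- (cKO, n = 2), and the comparison asks which genes respond to the loss of the transcription factor Runx3 in DC. The cKO mice carry floxed Runx3 alleles and a Cre transgene under the CD11c promoter, so that Cre acts in any cell that uses this promoter. The study's legends describe its Cre-negative littermates, which carry the floxed alleles, as the wild type. Both genotypes were sorted by the same gate, which used CD11c and MHC class II with Esam, CD4 and CD8, and the methods also list CD11b among the stains. The study's text calls the profiled cells CD11b-positive and Esam-high, and its legend calls them CD4-positive and Esam-high. The gate thus acted on the protein of Itgax and, by the study's text, on that of Itgam. The CD11c promoter that drives Cre is that of Itgax.

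Values are log2 values from robust multichip averaging (RMA), differences are cKO minus wt on that scale, and errors of group means are SD with n = 2. A difference was tested with limma and adjusted over all 18889 probe sets that reached 6.5 on at least 1 array. A second call follows the thresholds of the study, which ask for a 1.5-fold difference in either direction and, in a one-way test, for p up to 0.05 without adjustment. Probe sets of different genes differ in brightness for technical reasons, so no gene's level is set against that of another.

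The Runx3 probe set was at 11.37 and 11.51 in wt and at 11.47 and 11.45 in cKO. Its position relative to the deleted part is not given here, and it therefore checks no label. All mice are labelled male, whereas Xist, a transcript of the inactive X chromosome, read 12.75 and 12.78 on the litter 1 arrays but 5.15 and 5.19 on those of litter 2. The Y-linked Kdm5d ran the other way, at 5.27 and 5.19 against 9.84 and 9.89. Each genotype holds 1 array of each kind, and the difference within each litter is therefore given beside the members. All 15 markers of classical and Esam DC lay above the limit on every array. Of these, 0 passed the study's thresholds, near the 1.41% of all tested probe sets that did. Both cKO arrays lay above both wt arrays for 6 of them and below for 4, against 16.4% and 23.7% of all tested probe sets.

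Promoter windows from RefSeq (build GRCm38.p6, 250 bases before and 50 after the start) were found for 5 of the 9 members, Itgam, Itgax, Itga4, Itgb1 and Itgb7. Each was searched on both strands for TGTGGT, a core to which RUNX factors bind and which reads ACCACA on the opposite strand. This motif occurs in 16.8% of all 32851 windows. The search also covered GAGGAA, part of many sites of the myeloid factor PU.1 and read as TTCCTC on the opposite strand, which occurs in 28.3% of windows. No member's window held both motifs, so no matches overlap. Shown here are 150 bases, from -120 to 30 (the start is base 1 and there is no base 0), of 4 members: the neighbours Itgam and Itgax, of which the first passed the study's thresholds and the second did not, and Itga4 and Itgb7, which can pair with each other. Capitals mark matches to either motif.
Itgam, chr7:128062520-128062669, plus strand: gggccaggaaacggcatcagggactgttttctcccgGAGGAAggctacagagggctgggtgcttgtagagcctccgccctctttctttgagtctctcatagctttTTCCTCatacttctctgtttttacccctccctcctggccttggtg
Itgax, chr7:128129430-128129579, plus strand: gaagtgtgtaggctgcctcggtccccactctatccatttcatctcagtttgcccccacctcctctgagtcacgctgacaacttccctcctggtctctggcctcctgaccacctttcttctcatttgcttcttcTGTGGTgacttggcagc
Itga4, chr2:79255306-79255455, plus strand: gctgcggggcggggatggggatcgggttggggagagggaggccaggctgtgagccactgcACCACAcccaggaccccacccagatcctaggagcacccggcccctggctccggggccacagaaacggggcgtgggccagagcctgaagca
Itgb7, chr15:102231906-102232055, minus strand: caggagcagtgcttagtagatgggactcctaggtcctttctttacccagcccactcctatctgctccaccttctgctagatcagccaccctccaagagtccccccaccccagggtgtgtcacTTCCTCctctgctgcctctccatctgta

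Itgam held the PU.1 core at -84 to -79 and at -15 to -10, and once more at 33 to 38, beyond the stretch shown. Itgax held the RUNX core at 14 to 19 and Itga4 held it at -60 to -55. Itgb7 held the PU.1 core at 3 to 8, and Itgb1, not shown, at -9 to -4. A match is a run of letters and not a bound site, and a window without a match says only that the letters are not in it. By chromatin immunoprecipitation sequencing of splenic CD4-positive DC, the study reports Runx3 at the loci of both Itgam and Itgax.

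**Figure D1:**
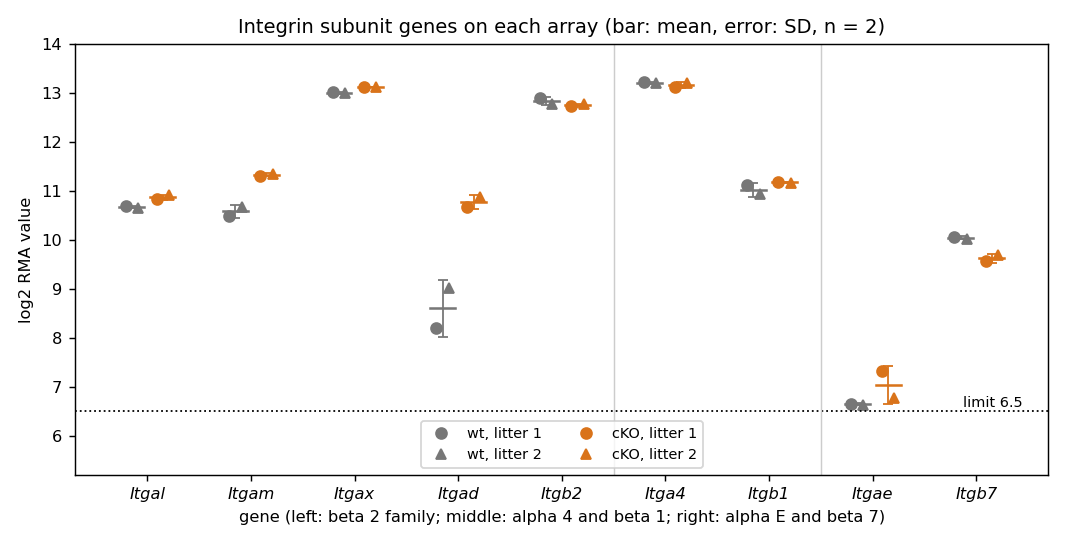
Log2 RMA value (vertical axis) of the 9 integrin subunit genes (horizontal axis) on each array. Grey is wt and orange cKO, circles are litter 1 and triangles litter 2, bars are means with SD (n = 2), and the dotted line is the limit of 6.5. Itgad has the widest gap between the genotypes, from 8.60 in wt to 10.77 in cKO.

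Among the 9 genes, Itgad and Itgam were higher in cKO past the study's thresholds, and none was lower past them. Across all tested probe sets 1.41% passed these thresholds, 0.9% as higher and 0.514% as lower. Both cKO arrays lay above both wt arrays for 6 members and below them for 2, against 16.4% and 23.7% of all tested probe sets (40.1% together). Itga4 was the member whose groups overlapped, and those of Itgb2 were apart only beyond the digits shown. No member passed limma's adjusted threshold (adjusted p from 0.216 to 0.927). None of all tested probe sets did so either (0%, with a smallest adjusted p of 0.0834), while 3 members, Itgam, Itgad and Itgb7, were under 0.05 unadjusted, against 9.38% of all. The median difference was 0.16 over the 9 genes and -0.02 over all tested probe sets.

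The 4 alpha partners of beta 2 were each higher in cKO by value. Itgad, the gene of alpha D, an integrin subunit found on splenic red pulp macrophages, was at 8.19 and 9.01 in wt and at 10.67 and 10.87 in cKO. The lower wt value is that of litter 1, and both cKO arrays lay far above both wt arrays. The means were 8.60 ± 0.58 in wt and 10.77 ± 0.14 in cKO (SD, n = 2). This is a 4.49-fold difference of 2.17 (standard error 0.30, 95% interval 1.35 to 2.99, limma adjusted p = 0.216), the rank of 4 from the top among 18889 probe sets. Within litters the difference was 2.47 in litter 1 and 1.86 in litter 2. In bulk RNA of sorted cells, more cells that express a gene and more of its RNA per cell cannot be told apart, here and for every gene below.

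Itgad also had a second, dimmer probe set, which did not follow the first. It read 5.99 and 6.26 in wt and 6.04 and 6.10 in cKO, under the limit of 6.5 on every array, and was not tested. With the mean of both probe sets, the Itgad difference was 1.05 and no longer passed the study's thresholds.

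Itgam, the gene of CD11b, was at 10.49 and 10.67 in wt and at 11.31 and 11.35 in cKO. The cKO arrays were close to each other and above both wt arrays. The means were 10.58 ± 0.13 and 11.33 ± 0.03 (SD, n = 2), a 1.68-fold difference of 0.75 (standard error 0.10, 95% interval 0.47 to 1.03, limma adjusted p = 0.216). Within litters the difference was 0.82 and 0.68. The study's text describes the profiled cells as positive for CD11b, the protein of this gene. Of the probe sets that carry Itgam, 3 carry Rpl35 too and were not used.

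The calls of both genes rest on few arrays. With litter as a block, which leaves the one-way test 1 residual degree of freedom, neither passed the study's thresholds. Itgam also missed them without either cKO array, at differences of 0.77 and 0.73, and Itgad missed them without wt 1 (1.76), without cKO 1 (2.27) and without cKO 2 (2.07).

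Itgal, the gene of alpha L, was at 10.70 and 10.65 in wt and at 10.84 and 10.91 in cKO. The groups did not overlap, and the difference was 0.20 (1.15-fold, standard error 0.09, 95% interval -0.04 to 0.43, limma adjusted p = 0.596), with 0.14 and 0.26 within litters. Itgax, the gene of CD11c, was at 13.01 and 12.99 in wt and at 13.12 on both cKO arrays. Its difference of 0.12 (1.08-fold, standard error 0.08, 95% interval -0.10 to 0.34, limma adjusted p = 0.753) was among the smaller ones, although the arrays of each genotype were nearly equal. Within litters it was 0.11 and 0.13. The interval leaves room for a difference of up to 0.34 in this gene, whose protein was used to sort the cells.

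Itgb2, the gene of the shared beta 2 subunit, was at 12.89 and 12.77 in wt and at 12.73 and 12.77 in cKO. Its arrays lay close together, and the difference was -0.08 (1.06-fold, standard error 0.09, 95% interval -0.33 to 0.17, limma adjusted p = 0.857). It was -0.16 in litter 1 and -0.00 in litter 2. Itgb2 was counted above as not overlapping, although wt 2 and cKO 2 were equal in the digits shown.

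The other 4 members belong to the beta 1 and beta 7 integrins. Itgb7, the gene of beta 7, was at 10.06 and 10.02 in wt and at 9.56 and 9.68 in cKO. The groups were apart, with means of 10.04 ± 0.03 and 9.62 ± 0.09 (SD, n = 2). The value in cKO was 1.34-fold below that in wt (difference -0.42, standard error 0.09, 95% interval -0.67 to -0.17, limma adjusted p = 0.349), under the study's fold limit of 1.5, with -0.50 and -0.34 within litters. It was the member with the most negative difference.

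Itgae, the gene of CD103 and the alpha partner of beta 7, was near the limit of 6.5. It was at 6.65 and 6.63 in wt and at 7.31 and 6.77 in cKO. The wt arrays were nearly equal, whereas the cKO arrays differed by 0.55, with litter 1 the higher. The difference was 0.40 (1.32-fold, standard error 0.21, 95% interval -0.16 to 0.96, limma adjusted p = 0.659), with 0.66 in litter 1 and 0.14 in litter 2. Without cKO 1 it was 0.13, and without cKO 2 it was 0.67 and passed the study's thresholds.

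Itga4, the gene of alpha 4, was at 13.23 and 13.20 in wt and at 13.13 and 13.21 in cKO. The groups overlapped, and the difference was -0.04 (standard error 0.09, 95% interval -0.28 to 0.19, limma adjusted p = 0.927). It was -0.10 in litter 1 and 0.01 in litter 2, and Itga4 was the member whose sign differed between litters. Itgb1, the gene of beta 1, was at 11.12 and 10.93 in wt and at 11.19 and 11.17 in cKO, a difference of 0.16 (standard error 0.10, 95% interval -0.13 to 0.44, limma adjusted p = 0.743). It was 0.07 in litter 1 and 0.25 in litter 2, and 0.26 without wt 1 and 0.06 without wt 2. No member differed between litters at an adjusted p under 0.05 (smallest 0.645), and 0 were under 0.05 unadjusted, against 0.0265% and 7.78% of all tested probe sets.

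**Figure D2:**
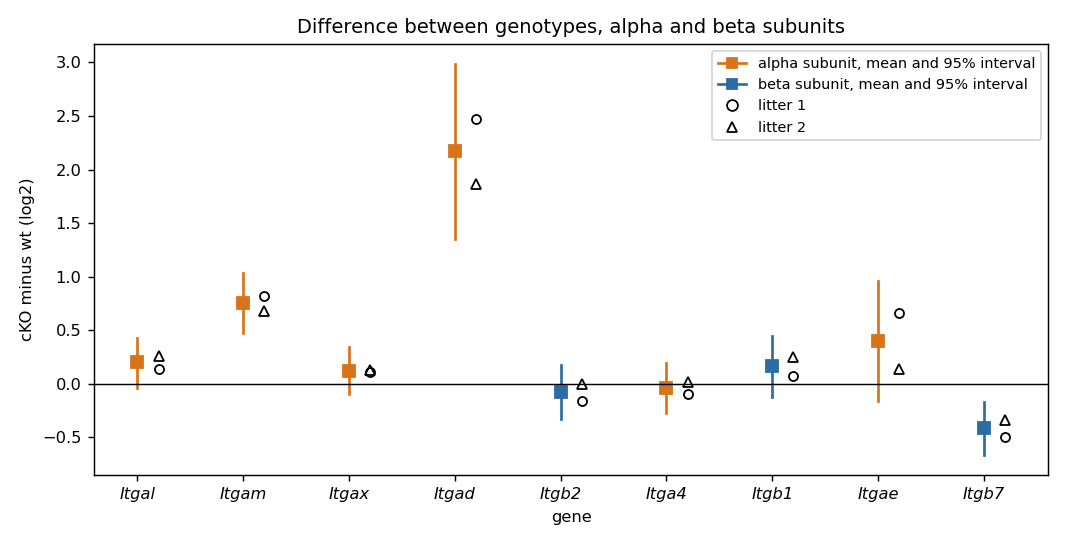
Difference cKO minus wt (vertical axis, log2) of each gene (horizontal axis), with squares for the mean and lines for the 95% interval, orange for alpha and blue for beta subunits. Open circles and triangles are the differences within litter 1 and litter 2. The intervals of Itgam, Itgad and Itgb7 do not hold 0, and those of the other 6 do.

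The comparison of each alpha subunit with its beta partner asked whether the 2 genes of a pair differed between genotypes by the same amount. For this the log2 value of the partner was subtracted on each array, which compares differences and not levels. The genotypes did not overlap for any of the 7 pairs. This holds for 41.9% of all probe sets set against Itgb2, 57.4% against Itgb1 and 83.2% against Itgb7, so that non-overlap is common in this comparison, and the exact permutation test of 2 against 2 arrays cannot go below the p of 0.333 that each pair gave.

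Against Itgb2, Itgad moved by 2.25 more (4.74-fold, standard error 0.32, 95% interval 1.39 to 3.10, limma adjusted p = 0.17), with 2.63 and 1.86 within litters. For Itgam this was 0.83 (1.78-fold, standard error 0.13, 95% interval 0.48 to 1.18, limma adjusted p = 0.204), with 0.98 and 0.69. Itgal was at 0.28 (95% interval 0.03 to 0.53, limma adjusted p = 0.472) and Itgax at 0.20 (95% interval -0.06 to 0.45, limma adjusted p = 0.618). The alpha genes thus differed in how far they departed from their common partner, by value, and none passed the adjusted test. Of all probe sets set against Itgb2 in this way, 9.62% were under 0.05 unadjusted and 0.00529% adjusted. With 1 probe set per gene in the adjustment, the Itgad value passed (limma adjusted p = 0.0421), whereas with the mean of both Itgad probe sets it was 1.13 (limma adjusted p = 0.256).

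Against Itgb7, Itgae was at 0.82 (1.77-fold, standard error 0.23, 95% interval 0.25 to 1.39, limma adjusted p = 0.0477), with 1.16 in litter 1 and 0.48 in litter 2. Itga4 was at 0.38 against Itgb7 (standard error 0.12, 95% interval 0.09 to 0.66, limma adjusted p = 0.051), with 0.40 and 0.35. Itgb7 itself stood at -0.42, and 33.7% of all probe sets passed the adjusted threshold when set against it and 60.6% were under 0.05 unadjusted, so the Itgae call is not particular to Itgae. It was also lost without cKO 1 (0.49, limma adjusted p = 0.225), without cKO 2 (1.15, limma adjusted p = 0.122) and with quantile normalization (0.80, limma adjusted p = 0.0522). With litter as a block, Itga4 passed against Itgb7 too (limma adjusted p = 0.0479). Against its other partner, Itgb1, Itga4 was at -0.20 (95% interval -0.52 to 0.12, limma adjusted p = 0.421), where 14.5% of all probe sets were under 0.05 unadjusted.

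Itgam, Itgax and Itgad follow each other on chromosome 7, with 0 protein-coding genes between them in RefSeq, and 35 lie between Itgal and Itgam. The next gene after Itgad is Cox6a2, a subunit gene of cytochrome c oxidase, and the RefSeq models of Itgad and Cox6a2 overlap at their ends, so their signals may not be separate. These neighbours were chosen after their values were seen. Cox6a2 was at 6.36 and 6.77 in wt, the first under the limit, and at 9.11 and 9.38 in cKO, a 6.4-fold difference of 2.68 that passed the study's thresholds (limma adjusted p = 0.158). Itgax, which lies between Itgam and Itgad, was at a difference of 0.12. On the other sides, Pycard was at 0.15, 9130023H24Rik at 0.09 and Armc5 at -0.09, and none of these passed. Of the 12 genes of the stretch with a probe set, 7 were tested, and Itgam, Itgad and Cox6a2 passed the study's thresholds. Of all tested probe sets 1.41% passed them. The stretch was chosen with its values in view and the signals of Itgad and Cox6a2 may not be separate, so this count tests nothing about the region.

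**Figure D3:**
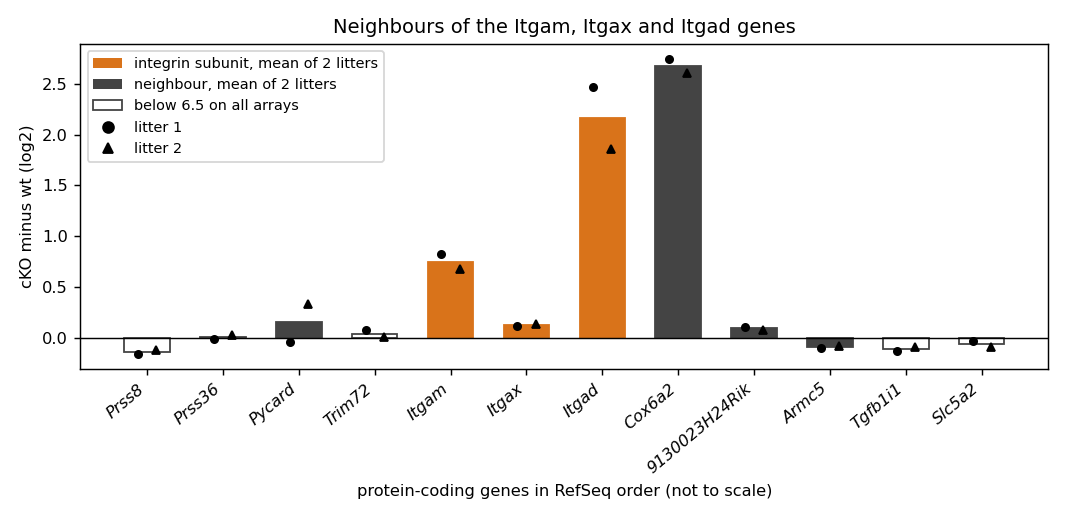
Difference cKO minus wt (vertical axis, log2) of the protein-coding genes around Itgam, Itgax and Itgad in RefSeq order (horizontal axis, not to scale). Bars are means of 2 litters, circles and triangles the litters, orange bars the integrin genes, and open bars genes under 6.5 on all arrays. Itgad and Cox6a2, at 2.17 and 2.68, stand side by side, next to Itgax at 0.12.

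The genes whose values over the 4 arrays were most like those of a member were sought among 9885 tested genes by the root mean square distance of the profiles, each centred on its mean. Closest to Itgam were Cmtm7 (distance 0.013), Fbxo4 (0.025) and Plin2 (0.032), the last a coat protein of lipid droplets. Closest to Itgad were Ace, the angiotensin-converting enzyme (0.243), Cox6a2 (0.295) and Hepacam2 (0.347). Closest to Itgae were Fcmr, the IgM receptor (0.058), Lrrcc1 (0.059) and Rasal1 (0.077). Fbxo4 was under the limit of 6.5 on both wt arrays (5.95 and 6.07), and Fcmr reached it on cKO 1 only (7.01). These genes were thus compared only because of cKO arrays, and their values under the limit are imprecise. With 4 arrays such likeness describes the profiles and no more.

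Among the 18 other integrin subunit genes with a probe set, 12 were below 6.5 on every array and 6 were tested. Of these 6, 1 passed the study's thresholds as higher and none as lower, and 0 passed limma's adjusted threshold. Itga8, an alpha partner of beta 1, was at 6.42 and 6.54 in wt and at 7.30 and 7.58 in cKO, so wt 1 was under the limit and the groups were apart (difference 0.96, 1.95-fold, limma adjusted p = 0.216). Itgb3, the gene of a beta partner of alpha v that is also part of the platelet integrin, was at 8.32 and 8.72 in wt and at 8.99 and 9.47 in cKO (difference 0.71, limma adjusted p = 0.491). The genes of alpha v, Itgav, and of another of its partners, beta 5, Itgb5, were at differences of 0.29 and 0.39, and Itga9 was at -0.25. The median of the 6 was 0.34.

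Of the 46 genes with a probe set that set the affinity of integrins or link them to actin, 35 were tested, and 1 passed the study's thresholds, as lower. Actn1, an actin crosslinker that binds beta tails, was at 11.22 and 11.05 in wt and at 10.54 and 10.42 in cKO, with the groups apart (difference -0.66, 1.57-fold, limma adjusted p = 0.248). The genes of talin and kindlin-3, which bind beta tails to activate integrins, were at -0.17 each (Tln1 and Fermt3). The tyrosine kinase genes Src, whose wt arrays were under the limit, and Ptk2b were at 0.41 and 0.27, and Vasp, an actin regulator, and Ilk, a kinase-like adaptor, were at -0.39 and -0.24, none past the thresholds. Of the 35, 14 were higher and 21 lower by value, and the median was -0.03.

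Of the 17 genes of ligands and counter-receptors with a probe set, 7 were tested and 1 passed the study's thresholds, as higher. Fcer2a, the gene of CD23, which can bind CD11b and CD11c, was at 6.19 and 6.44 in wt, under the limit, and at 7.35 and 7.34 in cKO (difference 1.03, limma adjusted p = 0.202). It was tested only because of the cKO arrays, and its wt values, like their distance from cKO, lie in the range under the limit and are imprecise. F11r and Icam2, which encode ligands of LFA-1, were at 0.78 and 0.37, and Vcam1, the ligand of VLA-4 and also one of the macrophage markers below, was at 0.73. Ager, a receptor that Mac-1 can bind, was at -0.10. The median of the 7 was 0.37. Over the 3 lists, 48 genes were tested, 2 passed as higher and 1 as lower, and the median was 0.01. Of all tested probe sets, 0.9% passed as higher and 0.514% as lower. Where the limit had to be reached on all 4 arrays, Itga8 and Fcer2a were not tested and Actn1 was the 1 gene that passed. With litter as a block, Actn1 and Itgb3 passed the study's thresholds and Itga8 and Fcer2a did not. Itga8 and Actn1 also missed them without any 1 of the 4 arrays, and Fcer2a without either cKO array.

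**Figure D4:**
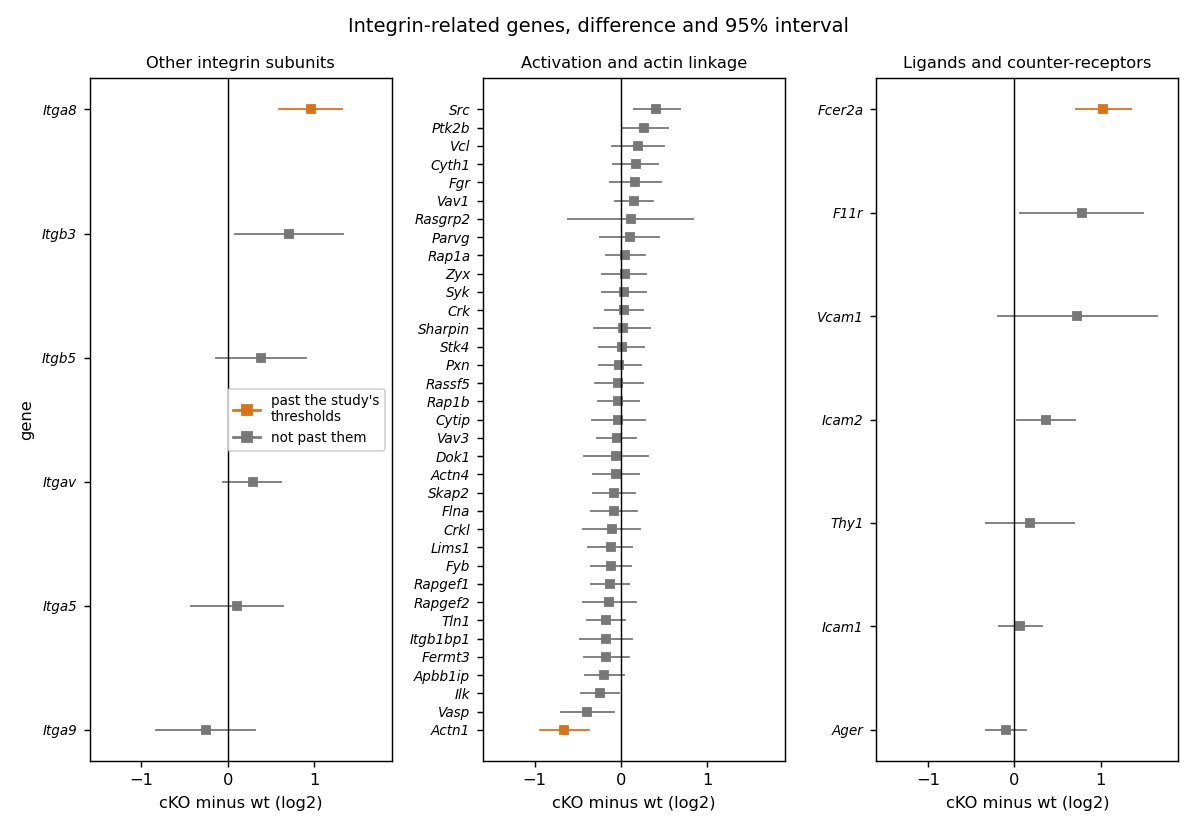
Difference cKO minus wt (horizontal axis, log2) with its 95% interval for the tested genes of 3 lists (vertical axes): other integrin subunits, activation and actin linkage, and ligands. Orange marks genes past the study's thresholds, which are Itga8, Actn1 and Fcer2a.

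Markers of some other cells that a spleen sort could hold moved with the genotype too. Of 16 tested macrophage markers, 16 were higher in cKO by value and 2, Spic and C1qb, passed the study's thresholds, with a median of 0.71. Their summed level (log2) was 14.03 and 14.26 in wt and 14.45 and 14.58 in cKO, and Cd163, Marco and Fcgr1 were below the limit. For 12 of the 16, Spic, C1qb and Vcam1 among them, both cKO arrays lay above both wt arrays. Of all tested probe sets, 16.4% were apart in this direction and 1.41% passed the study's thresholds, shares that also apply to the lists below. The groups overlapped for Slc40a1, Hmox1, Mrc1 and Cd68. Spic, a transcription factor of red pulp macrophages, was at 9.70 and 9.47 in wt and at 10.31 and 10.33 in cKO. Slc40a1, the iron exporter, was at 8.60 and 10.20 in wt and at 9.97 and 10.58 in cKO. The part of macrophages in the Itgad and Itgam values was not tested.

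Markers of cDC1, the other class of classical DC, on which CD103 is found, were higher by value for 11 of 14 tested genes, and 10 passed the study's thresholds, with a median of 1.12. Their summed level was 14.30 and 14.21 in wt and 14.92 and 15.03 in cKO, and none was below the limit. Cd8a, the gene of the CD8 alpha chain that cDC1 carry, was at 9.49 and 9.08 in wt and at 10.63 and 10.88 in cKO. The 3 lower by value were Batf3 and Wdfy4, both at -0.29 with the groups apart, and Septin3 at -0.49 with the groups overlapping. Of 10 monocyte markers, 9 were higher by value and 3 passed, Ccr2, Ace and Treml4. Ccr2 was under the limit on the wt arrays (6.18 and 6.03) and was tested only because of the cKO arrays. The summed levels of the monocyte list were 14.40 and 14.26 in wt and 14.66 and 14.65 in cKO. The methods describe splenic DC as high in CD11c and positive for MHC class II, and CD8 was among the stains. The part of cDC1 and monocytes in the Itgae, Itgam and Itgad values was not tested.

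Of 10 neutrophil markers, 1 was tested, Csf3r, which passed as higher, and the other 9 were below the limit. The summed level was 9.01 on both wt arrays and 9.65 and 9.69 in cKO. Without Csf3r it was 8.33 and 8.27 in wt and 8.36 and 8.35 in cKO, and none of these 9 genes, which include S100a8, S100a9 and Ly6g, was above 5.53 on any array. Plasmacytoid DC markers, a list that holds Cox6a2, were higher by value for 6 of 7, of which Cox6a2 passed, with summed levels of 11.68 and 11.46 in wt and 12.13 and 12.14 in cKO. Of the platelet markers 2 of 7 were tested, Itgb3 and Clec1b, neither past the thresholds, and the other 5, Pf4, Ppbp, Gp9 and Itga2b among them, were below the limit. Without Itgb3, the platelet sum was 8.47 and 8.60 in wt and 8.54 and 8.77 in cKO. For T, NK and B cells 0 tested markers passed, and all 4 erythroid markers with a probe set were below the limit. The summed level was 10.04 and 9.86 in wt against 9.96 and 9.78 in cKO for T cells, 8.46 and 8.29 against 8.73 and 8.48 for NK cells, of whose markers 1 of 7, Nkg7, was tested, and 12.67 and 12.34 against 12.61 and 12.45 for B cells.

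**Figure D5:**
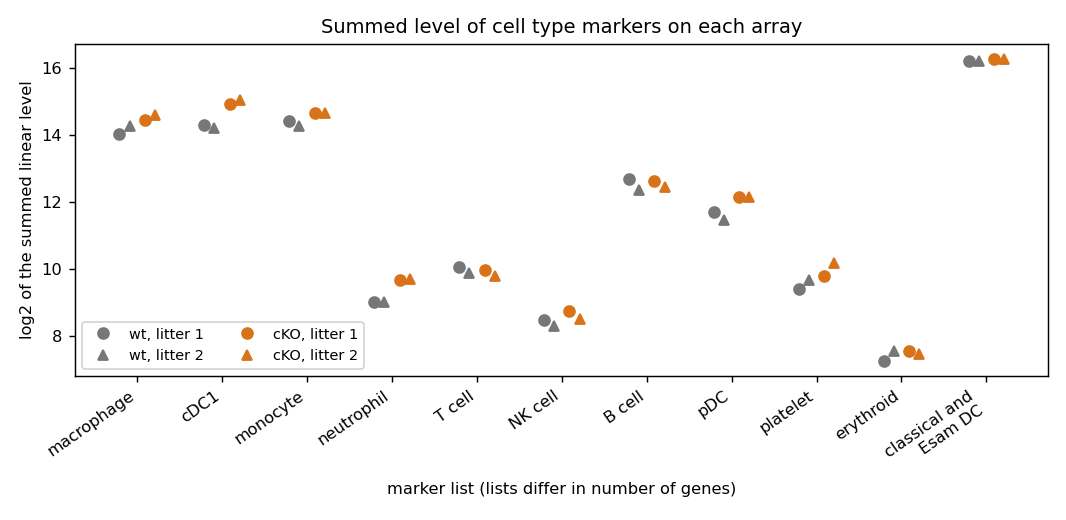
Log2 of the summed linear level (vertical axis) of the markers of each cell type (horizontal axis) on each array, grey for wt, orange for cKO, circles for litter 1 and triangles for litter 2. Lists differ in size, so heights are compared only within a list. The macrophage, cDC1, monocyte, neutrophil, NK cell, plasmacytoid DC and platelet lists are higher on both cKO arrays than on both wt arrays. So is the Esam DC list, at 16.21 in wt and at 16.25 and 16.26 in cKO. The genotypes overlap for the T cell, B cell and erythroid lists.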

How the data were processed

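Splenic Esam DC of 4 mice were profiled on 4 Affymetrix arrays. The deposited values are on the log2 scale and were made by the authors with RMA. Partek, RMA and the build mm9 are listed in the submitters' processing notes without versions. The methods name an exon array and the annotation is that of a gene-level array, and labels and methods also differ on the RNA kit (RNeasy, miRNeasy). Array medians were 6.58 to 6.62, and correlations between arrays across 35399 probe sets were 0.9922 to 0.9956. The small number of arrays limits the precision.

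Of the probe sets, 21789 carried 1 symbol, 1621 several and 11989 were not listed. Probe sets that reached 6.5 on at least 1 array (18889) were fitted with limma 3.58.1 in R 4.3.3, as the two-sided contrast of cKO with wt, adjusted by Benjamini-Hochberg at a threshold of 0.05. The fit had 2 residual and 2.2 prior degrees of freedom. The procedure was also tested on simulated data, drawn with independent errors and no litter term. That test thus does not cover arrays of littermates that vary together. The methods' one-way test and fold limit of 1.5 gave the second call. P-values rest on the spread between these mice, which limma draws toward that of all tested probe sets. In the main fit, which has no litter term, this spread includes the difference between litters. The labels put 1 wt and 1 cKO mouse in each litter, and the deviations of littermates correlated (r = 0.27), so the litter was a block in an alternative fit. For each pair, the fit was repeated after subtracting the beta partner from every probe set.

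Named genes are the 9 members, related genes past the study's thresholds plus up to 4 more per list by unadjusted p, the 3 genes most like Itgam, Itgad and Itgae, Runx3, Xist, Kdm5d and markers. Any other gene named was picked with its values in view. The members and lists were chosen with earlier results of these data known. RefSeq (GRCm38.p6) gave gene order, names and promoter sequences, and it is not the build of the processing notes. Alternatives covered the filter, scaling, choice of probe set, test, fold limit and leaving out each array.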

Additional observations from a re-analysis of the deposited data

How the results depend on the processing

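No difference of a member or a pair changed sign under any alternative. The number of members past the study's thresholds was 2, and ran from 0 to 2 when each array was left out. It was 0 with the replicate block, where the one-way test has 1 residual degree of freedom, 1 (Itgam) with the mean of all probe sets of a gene and 1 (Itgad) with a fold of at least 2. It was 2 under the other alternatives run. No member passed the adjusted threshold under any alternative.

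For alpha subunits against their beta partners, the number past the adjusted threshold was 1 and ran from 0 to 1 when each array was left out. It was 2 with the replicate block of littermates, with no filter, with the limit reached on all 4 arrays and with an intensity trend, 3 with 1 probe set per gene, and 0 with quantile normalization. The number of related genes past the study's thresholds was 3 and ran from 0 to 1 when each array was left out. It was 1 with the limit reached on all 4 arrays, which leaves fewer genes, and 5 with limma's unadjusted p. It was 2 with the block, and these were Itgb3 and Actn1 in place of Itga8, Actn1 and Fcer2a. Otherwise the cause was not tested. Where an array was left out, the lone array was assumed to vary like the pair that remained.

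The Itgad difference ran from 1.05 to 2.57, that of Itgam from 0.66 to 0.84, that of Itgae from 0.13 to 0.67, that of Itgb7 from -0.48 to -0.36, that of Itgb1 from 0.06 to 0.26 and that of Itgb2 from -0.13 to -0.02. Members near 6.5, such as Itgae, are close to the dim end of the arrays, and detection values were not analysed here.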
